A study of Mus musculus with 20 samples.

Results

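The expression of 7 protease inhibitor genes was followed in sorted CD4 T cells of mouse lymphoid tissue: Slpi, the stefin Stfa3, the serpins Serpina9, Serpina3g, Serpinb6a and Serpinb9, and the cystatin Cst7. They were taken by their symbol in the scanner files, which gave 7 probes, 1 per gene, of 39429 probes for 24683 named genes. Slpi, Stfa3 and Serpina9 were chosen by their measured intensities, because they stood out in these same arrays when gut Peyer's patches (PP) were set against peripheral lymph nodes (pLN), in follicular helper cells and, for Slpi, also in the average over cell types. Their values between the tissues are therefore a description without a test.

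RNA was hybridised to 20 single-colour Agilent arrays, each carrying 1 pool from 8 to 15 mice of mixed sex, 8 to 14 weeks old, of the strain B6.Cg-Foxp3<tm1Mal>, in which GFP marks Foxp3-expressing cells. All pLN pools came from mice immunised with keyhole limpet hemocyanin in alum. On day 12 (d12) and day 25 (d25) naive T cells (GFP-, PD1 low, GL7-), T follicular helper (TFH) cells (GFP-, PD1 high, GL7+), regulatory T (Treg) cells (GFP+, PD1 low, GL7-) and T follicular regulatory (TFR) cells (GFP+, PD1 high, with or without GL7) were sorted. From PP, TFH cells with GL7 (GL7+) and without it (GL7-), Treg cells and TFR cells were sorted, and no naive cells. The PP labels name neither immunisation nor a day, so whether these mice were immunised cannot be read from them. There were 2 arrays in each d12 and PP group and 1 array in each d25 group. As nothing in the labels says that the 2 pools of a group were made independently, p-values measure the spread between these samples.

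Proteases cut proteins in lysosomes, in cytotoxic granules and outside cells, and inhibitors keep that activity in bounds. Serpins trap mostly serine proteases in a covalent complex, stefins and cystatins plug the active site of papain-like cysteine cathepsins, and Slpi, a small secreted protein with WAP domains, blocks neutrophil elastase and cathepsin G at mucosal surfaces. In lymphocytes, intracellular inhibitors are best known for protecting a cell from its own granzymes and from cathepsins that leak out of lysosomes.

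Each slide held the 4 groups of 1 tissue and day: slides 1 and 2 replicates 1 and 2 of pLN d12, slide 3 pLN d25, and slides 4 and 5 replicates 1 and 2 of PP, so that tissue, day and slide cannot be told apart. Between 43.0% and 58.0% of probes were detected per array. The labels were borne by Foxp3, which lay between 13409 and 35129 in Treg and TFR cells and at or below 192 elsewhere. Transcripts of other cells were present: the sum of 10 B cell markers was 24697 to 171341 on slide 4 and 6449 to 14790 on slide 5, and the 7 epithelial markers summed to 3525 to 8234 on slide 4 and 743 to 2264 on slide 5. Levels below are quantile-normalised intensities scaled to a 75th percentile of 1500 and floored at 20, which may be compared between arrays but not between probes. In bulk RNA of sorted cells, fewer cells of a type and less RNA per cell cannot be told apart.

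**Figure D1:**
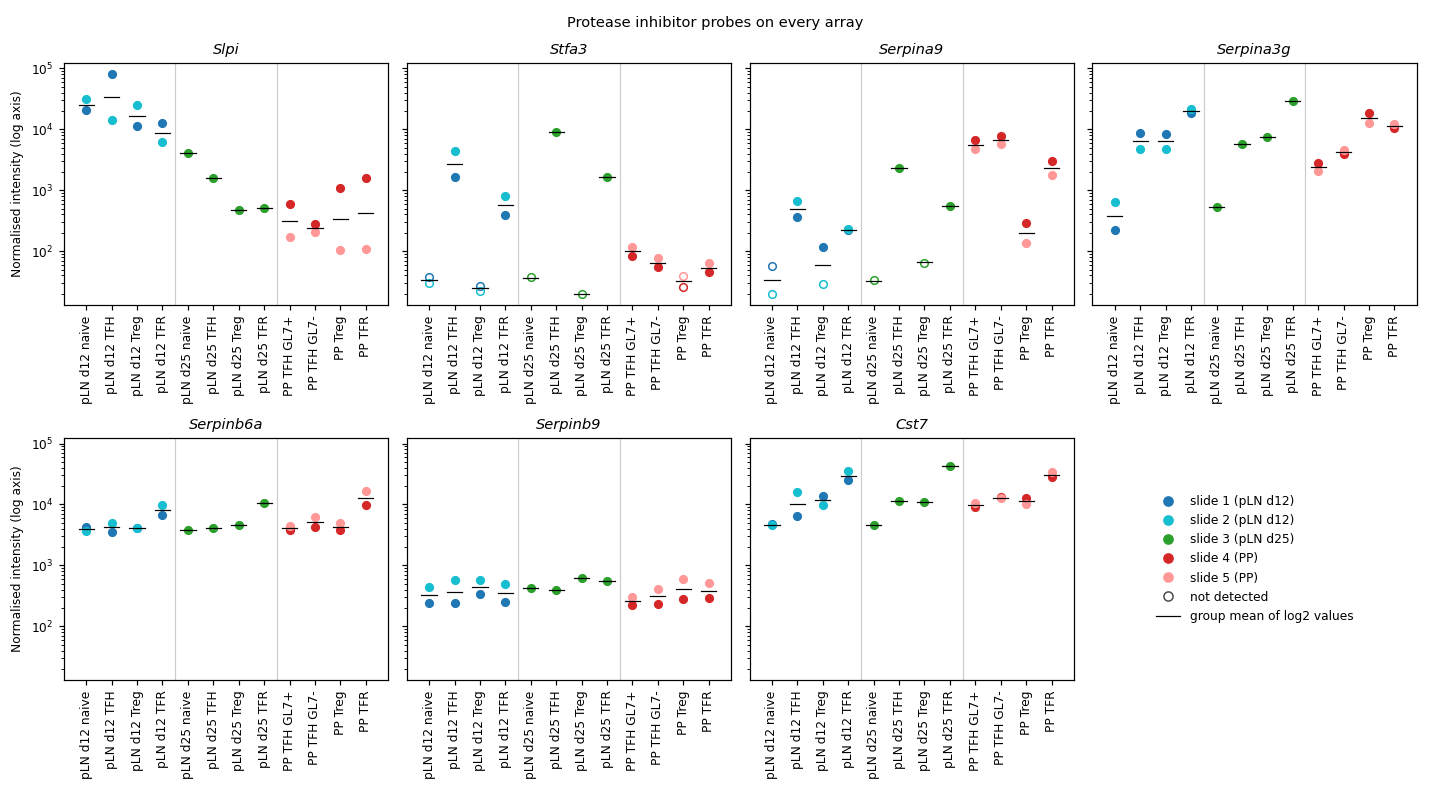
Normalised intensity (log axis) of the 7 protease inhibitor probes in the 12 groups; each point is 1 array, coloured by slide, open where the probe was not detected, and the bars are means of log2 values. Slpi reached 80797 in pLN d12 and 1598 in PP, Stfa3 was raised in TFH and TFR cells of pLN, Serpina9 in TFH and TFR cells of PP, and Cst7 in every TFR group.

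Slpi was abundant in every cell type of pLN on d12 and low in PP. Its probe lies at chr2:164179849-164179908 (mm9, minus strand) and was detected on all 20 arrays. On d12 Slpi was 20779 and 30998 in naive T cells, 80797 and 14489 in TFH cells, 11193 and 24787 in Treg cells and 12514 and 6283 in TFR cells (replicates 1 and 2). On d25 it was 4137 in naive, 1570 in TFH, 468 in Treg and 514 in TFR cells. Every d25 array thus lay below every d12 array. On each of the 3 pLN slides Treg cells held less than naive T cells (log2 differences of -3.14 to -0.32), and TFR cells less than TFH cells (-2.69, -1.21 and -1.61), while TFH cells were above naive T cells on slide 1 (1.96) and below on slides 2 and 3 (-1.10 and -1.40). PP levels were 593 and 168 in GL7+ TFH cells, 284 and 210 in GL7- TFH cells, 1087 and 106 in Treg cells and 1598 and 108 in TFR cells. The d25 array of TFH cells lay above all 4 PP TFH arrays, and those of Treg and TFR cells lay between the 2 PP arrays of their cell type. On the log2 scale Slpi was lower in PP than in pLN d12 by a fitted difference of -5.61 in Treg, -6.76 in TFH and -4.41 in TFR cells (SE 1.39 each).

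The spread of Slpi between arrays of the same group was wide. Its residual SD of 1.55 on the log2 scale stood at the 98.5th percentile of the tested probes, whose median was 0.341. No comparison of cell types within a tissue was called for Slpi. The averaged difference between d25 and d12 was -4.08 (SE 0.85, limma, adjusted p = 0.213), and it was called only when dim probes were kept in the test.

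Slpi moved with plasma cell transcripts within each tissue. The summed intensity of Jchain (the joining chain of polymeric antibodies), Mzb1 and Sdc1 was 26046 and 27852 in d12 naive, 85475 and 12817 in TFH, 16633 and 23810 in Treg and 12445 and 6403 in TFR cells. In all 4 d12 groups the array with more Slpi had the higher sum, and the same was true in all 4 PP groups. On d25 the sum was only 1054 to 2404. Between the tissues the 2 measures went apart, since PP TFR replicate 1 had a plasma cell sum of 89582 with Slpi at 1598, while pLN d12 TFH replicate 1 had 85475 with Slpi at 80797. The myeloid sum also ranked the arrays as Slpi did in all 4 groups of both tissues, and the B cell sum in 3 of 4 d12 groups and 4 of 4 PP groups. Most of the myeloid sum was Csf3r on every array, for example 46447 of 78912 in PP Treg replicate 2. Itgam, the next largest part, went against Slpi in every PP group, with 11804 to 14927 on slide 4 and 20862 to 31914 on slide 5. On d12 Itgam went with Slpi in naive and Treg cells only. The dimmer Lyz2 and Csf1r ranked the arrays as Slpi did in every d12 and PP group. In PP, where slide 4 had the more Slpi in every group, the T cell, follicular, epithelial and CD8 or NK sums were also the higher ones there in 4 of 4 groups, against 1 or 2 of 4 in pLN d12. The part of these cells in the Slpi values was not tested.

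**Figure D2:**
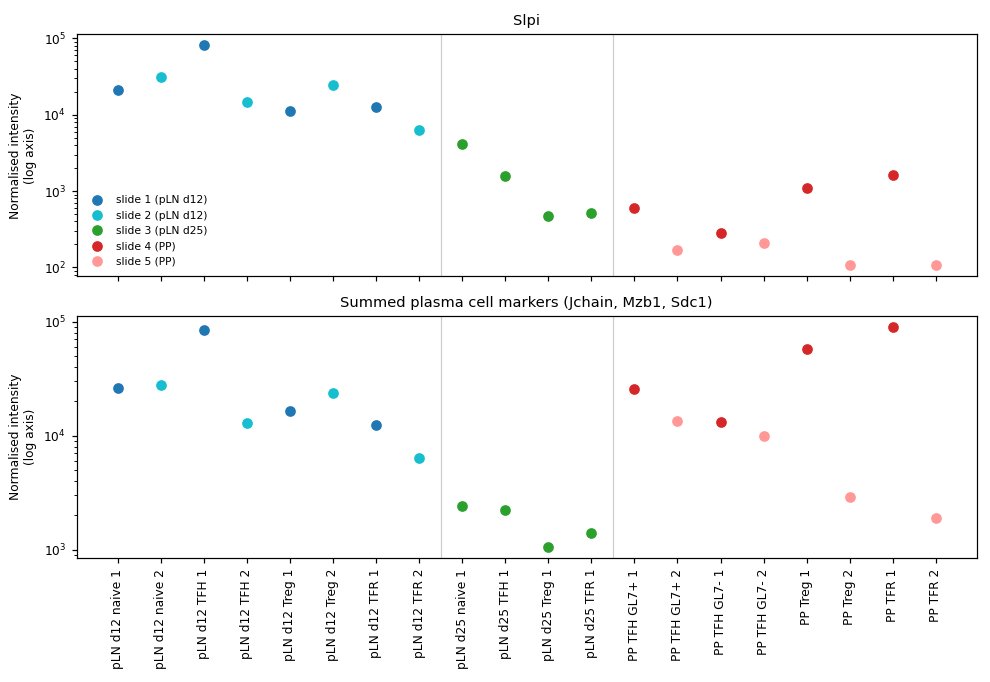
Slpi (top) and the sum of the plasma cell markers Jchain, Mzb1 and Sdc1 (bottom), both as normalised intensity on a log axis, for each of the 20 arrays, coloured by slide. Within pLN the arrays ran from 468 to 80797 for Slpi and from 1054 to 85475 for the sum, and the array with the higher sum in each pair of replicates also had more Slpi; in PP the sums reached 89582 while Slpi stayed at or below 1598.

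Stfa3, a member of the stefin A family of cytosolic cathepsin inhibitors, marked the follicular cells of pLN. It was detected on 12 of 20 arrays, all of them follicular. In pLN TFH cells it was 1652 and 4476 on d12 and 9122 on d25, and in TFR cells 393 and 815 on d12 and 1658 on d25. In naive and Treg cells it was between 20 and 38 and not well above background on any array. In PP it was 84 and 118 in GL7+ TFH cells, 55 and 76 in GL7- TFH cells and 46 and 63 in TFR cells, all detected but dim, and 26 and 39 in Treg cells, not detected. No follicular group of PP overlapped its counterpart in pLN.

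Within pLN d12 Stfa3 was at least 44.2-fold higher in TFH than in naive T cells (limma, adjusted p = 1.45e-05) and at least 11.4-fold higher in TFR than in Treg cells (limma, adjusted p = 0.000425). The bounds compare group means of log2 values. An undetected naive or Treg array enters at the lowest signal detected on it, or at its own value if that was higher. Single pairs of arrays can lie below these bounds. TFR cells held less than TFH cells, with a log2 difference of -2.26 (SE 0.48, limma, adjusted p = 0.0205), and the same direction was seen on all 5 slides. That last call was lost without TFR replicate 1, without TFH replicate 2, in a fit of only the 2 groups and with dim probes kept, where the difference was -2.98 to -1.54 over all alternatives. The comparisons of Stfa3 and Serpina9 with TFH cells share arrays with the contrast on which these genes were picked. Stfa3 also passed the filter on dim probes only through follicular groups, where it was high. Its calls against naive and Treg cells are therefore no independent support, though both held with dim probes kept in the test.

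In PP the difference between GL7+ TFH and Treg cells, at least 2.51-fold, had an adjusted p of 0.05 (limma) and was not called, but it was with slide as a fixed block (limma, adjusted p = 0.0126) and without quantile normalisation (limma, adjusted p = 0.035). Between the tissues, the fitted log2 difference was -4.77 in TFH and -3.40 in TFR cells (SE 0.48 each). Stefin A transcripts are also known from neutrophils and other myeloid cells. Of the 7 myeloid markers 4 to 7 were detected per array, with Csf3r, Itgam, Lyz2 and Csf1r on all 20. Their sum was 62639 to 95839 in pLN and 75205 to 101964 in PP. Lyz2 was 2387 and 2237 in d12 TFH cells against 557 and 882 in naive T cells. In d12 TFR cells it was 1419 and 1058, against 494 and 838 in Treg cells. Csf1r was 1009 and 954 in d12 TFH against 427 and 436 in naive T cells. In d12 TFR cells Csf1r was 891 and 557, against 368 and 401 in Treg cells. PP levels of Csf1r were 644 and 241 in GL7+ TFH, 995 and 149 in TFR and 956 and 123 in Treg cells. Those of Lyz2 were 1252 and 649 in GL7+ TFH, 3381 and 488 in TFR and 3528 and 368 in Treg cells. Itgam went the other way in pLN d12, with 6297 and 11095 in TFH against 14242 and 18733 in naive T cells. In d12 TFR cells Itgam was 6423 and 8039, against 9951 and 13851 in Treg cells. S100a8 and S100a9 were at the floor of 20 on pLN d12 TFH replicate 2 and on both follicular d25 arrays. There Stfa3 was 4476, 9122 and 1658. On pLN d12 TFH replicate 1 they were 70 and 243, where Stfa3 was 1652. S100a9 was highest, at 1096, in d12 Treg replicate 2, where Stfa3 was 22. The part of myeloid cells in the Stfa3 values was not tested.

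The stefin A genes are close copies, and the probe of Stfa3 shares 8 words of 15 bases with that of the neighbouring Gm5483 (RefSeq symbol Cstdc4) and none with any other probe on the array. The shared stretch is shown to let the 2 targets be told apart, with the differing base in capitals, at chr16:36450718-36450742 on the minus strand for Stfa3 and chr16:36188078-36188102 on the plus strand for Gm5483 (mm9).
Stfa3: ggttaccagactaacaaaaccaAga
Gm5483: ggttaccagactaacaaaaccaGga
Despite 24 identical bases of 25, the Gm5483 probe stayed between 20 and 28 on the 20 arrays, so that the signal of the Stfa3 probe was not matched by it.

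Serpina9, known as a germinal centre serpin of B cells, was the counterpart of Stfa3: also follicular, but higher in PP. PP levels were 6646 and 4719 in GL7+ TFH cells, 7696 and 5732 in GL7- TFH cells, 2981 and 1772 in TFR cells and 290 and 138 in Treg cells. In pLN it was 364 and 678 in TFH cells on d12 and 2316 on d25, and 223 and 227 in TFR cells on d12 and 555 on d25. Treg cells of pLN held 117, 29 and 65, and naive T cells 57, 20 and 33 (d12 replicates, then d25), and only the first of these Treg arrays was above background. The d25 TFH array lay within the range of PP TFR cells and below both PP TFH groups.

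Serpina9 was at least 6.83-fold higher in pLN d12 TFH than in naive T cells (limma, adjusted p = 0.00261), a call that ended in a fit of only the 2 groups, with fitted differences of 2.21 to 4.63 over the alternatives. In PP the log2 difference was 4.81 between GL7+ TFH and Treg cells (SE 0.69, limma, adjusted p = 0.0011) and 3.52 between TFR and Treg cells (SE 0.69, limma, adjusted p = 0.00779). TFR cells held less Serpina9 than TFH cells on all 5 slides, with log2 differences of -2.06 to -0.70 and no call in either tissue. Both PP calls were lost without slide 4, which leaves 1 array in each PP group, and that between TFR and Treg cells also without TFR replicate 1 or Treg replicate 2 and in a fit of only the groups compared. Between the tissues the fitted log2 difference was 3.50 in TFH and 3.35 in TFR cells and 1.77 in Treg cells (SE 0.69 each).

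As a gene known from B cells, Serpina9 was set beside the sum of the 10 B cell markers. In PP the array with the higher sum had more Serpina9 in 4 of 4 groups, and in pLN d12 in 1 of 4. On slide 5, where the sum was 6449 to 14790, Serpina9 was 5732 in GL7- TFH, 4719 in GL7+ TFH, 1772 in TFR and 138 in Treg cells. On the 8 pLN d12 arrays, where the sum was 6524 to 25547, Serpina9 was 20 to 678. The sum does not single out germinal centre B cells. The part of B cells in the Serpina9 values was not tested.

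Serpina3g, an inhibitor of lysosomal cathepsins in activated lymphocytes, was low in naive T cells and high in all other groups, most of all in TFR cells of pLN. Naive T cells held 220 and 638 on d12 and 532 on d25. In pLN d12 it was 8764 and 4682 in TFH cells, 8534 and 4698 in Treg cells and 18875 and 21174 in TFR cells. On d25 TFH cells held 5794, Treg cells 7445 and TFR cells 29138. The order TFR above Treg cells was seen on the 3 pLN slides but not in PP, where Treg cells held 18742 and 12817 and TFR cells 10660 and 12427, GL7- TFH cells 3954 and 4514 and GL7+ TFH cells 2831 and 2065.

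The log2 difference of Serpina3g from naive T cells was 4.10 in TFH cells (SE 0.49, limma, adjusted p = 0.000227) and 4.08 in Treg cells (SE 0.49, limma, adjusted p = 0.000947). Both calls ended in a fit of only the groups compared (limma, adjusted p = 0.0677 and 0.224). The 2 pLN TFR arrays exceeded those of Treg and TFH cells, but differences of 1.66 and 1.64 (SE 0.49 each) missed the threshold (limma, adjusted p = 0.056 and 0.0918). That from Treg cells was called with slide as a fixed block (limma, adjusted p = 0.0359), with normexp and without quantile normalisation, and that from TFH cells with normexp (limma, adjusted p = 0.048). In PP it was higher in TFR than in GL7+ TFH cells by 2.25 (SE 0.49, limma, adjusted p = 0.0304) and lower in GL7+ TFH than in Treg cells by a difference of -2.68 (SE 0.49, limma, adjusted p = 0.00478). The TFR call in PP ended when any of the 4 arrays was left out, with dim probes kept and in a fit of only the groups compared, and both PP calls ended without slide 4, with differences of 2.02 to 2.59 and -2.95 to -2.41 over the alternatives. Between PP and pLN d12 the fitted difference was 1.29 in Treg and -1.41 in GL7+ TFH cells.

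Its genomic neighbour Serpina3f was, within pLN d12, likewise lowest in naive T cells and highest in TFR cells. There Serpina3f was 20 and 26 in naive T cells (not detected), 474 and 221 in TFH, 330 and 138 in Treg and 588 and 554 in TFR cells. PP levels of Serpina3f were 741 and 425 in Treg cells, 166 and 171 in TFR and 59 and 64 in GL7+ TFH cells. In PP Serpina3f was lower in TFR than in Treg cells by a difference of -1.73 (SE 0.46, limma, adjusted p = 0.0344), where that of Serpina3g was not called. The probes of the pair share no word of 15 bases. The promoter windows of both genes are shown because both genes were called higher in TFH and Treg than in naive T cells. They run from 250 bases before to 50 after the start (RefSeq, GRCm38.p6, plus strand), at chr12:104235897-104236196 for Serpina3g and chr12:104214294-104214593 for Serpina3f, and the capitals mark matches to TTCNNNGAA, the palindrome that STAT factors are known to bind.
Serpina3g: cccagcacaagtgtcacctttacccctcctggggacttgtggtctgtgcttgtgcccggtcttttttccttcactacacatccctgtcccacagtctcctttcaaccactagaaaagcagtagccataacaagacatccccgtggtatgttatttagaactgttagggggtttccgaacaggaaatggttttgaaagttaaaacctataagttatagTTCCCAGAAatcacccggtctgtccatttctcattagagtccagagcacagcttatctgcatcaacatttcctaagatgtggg
Serpina3f: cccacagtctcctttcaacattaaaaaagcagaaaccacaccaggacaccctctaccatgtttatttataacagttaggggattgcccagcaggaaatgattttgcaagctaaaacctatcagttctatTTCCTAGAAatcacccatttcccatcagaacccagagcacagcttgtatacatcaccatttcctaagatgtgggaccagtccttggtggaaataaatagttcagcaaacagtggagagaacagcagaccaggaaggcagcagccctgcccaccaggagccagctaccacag
Each window held 1 match, and the longest run of bases they share is 19. Of 32851 promoter windows, 8.3% held this motif on either strand. Windows were at hand for 6 of the 7 inhibitor genes, and besides Serpina3g the motif was found in 1 of the 2 windows of Serpinb6a. A pair of GAAA words with any 2 bases between them, found in 3.44% of windows, was in that of Serpinb9 and in the same Serpinb6a window, and TGACTCA, found in 5.2%, was in that of Stfa3. A match describes the letters only.

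Serpinb6a, an intracellular serpin that inhibits trypsin-like proteases and cathepsin G, was evenly expressed except in TFR cells. Its 15 arrays of other cells lay between 3580 and 6196. TFR cells held 6633 and 9772 in pLN d12, 10366 in pLN d25 and 9687 and 16707 in PP, above all other arrays. In PP the log2 difference was 1.56 from Treg cells (SE 0.31, limma, adjusted p = 0.00875) and 1.64 from GL7+ TFH cells (SE 0.31, limma, adjusted p = 0.0149). Both calls ended without slide 4, without TFR replicate 2 and in fits of only the groups compared, that from Treg cells also without Treg replicate 1 and that from TFH cells without either TFH array. In pLN d12 neither difference was called, at 0.98 from Treg and 0.94 from TFH cells (SE 0.31 each, limma, adjusted p = 0.0743 and 0.132). On all 5 slides TFR cells held more than Treg cells, by 0.70 to 1.75, and more than TFH cells, by 0.89 to 1.92 (log2).

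The signal cannot be given to Serpinb6a alone. Its probe shares 15 and 12 words of 15 bases with the 2 probes of Serpinb6c and 5 with that of Serpinb6e, paralogues on the same chromosome. A stretch of 30 bases of these probes is shown to make the likeness visible, with the positions that differ in capitals. It lies at chr13:34009826-34009855 for Serpinb6a, chr13:33971715-33971744 for Serpinb6c and chr13:33924243-33924272 for Serpinb6e (mm9, minus strand).
Serpinb6a: aagtgaccttatccataaGtGCaatgGcaA
Serpinb6c: aagtgaccttatccataaGtGCaatgAcaG
Serpinb6e: aagtgaccttatccataaAtATaatgAcaG
Serpinb6c differed from Serpinb6a at 2 and Serpinb6e at 5 of these 30 bases. Over the 20 arrays the Serpinb6a probe had an r of 0.996 and 0.924 with the Serpinb6c probes, which lay at 5956 to 15075 and 1321 to 5588 in TFR cells and at 3062 to 5130 and 624 to 2132 elsewhere. The Serpinb6e probe stayed between 20 and 147.

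Serpinb9, the inhibitor of granzyme B in cytotoxic lymphocytes, was low and flat. It was detected on all 20 arrays, at 223 to 611, and its difference was below 1 on the log2 scale in each of the 12 comparisons. In pLN d12 it was 243 and 439 in naive T cells, 238 and 565 in TFH cells, 341 and 569 in Treg cells and 252 and 489 in TFR cells. Replicate 2 (RNA input 40 ng, against 50 ng for replicate 1) was the higher in each of these groups and in each PP group. Its target Gzmb ranged far more widely. Gzmb was 6726 and 6135 in d12 Treg and 3978 and 8170 in d12 TFR cells, 434 and 482 in TFH cells, and 55 and 87 in naive T cells, where it was not detected. In PP Gzmb was 6765 and 4695 in Treg cells and 646 and 536 in TFR cells, where Serpinb9 was 281 and 600 and 286 and 518.

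Cst7 encodes cystatin F, an inhibitor of lysosomal cathepsins such as cathepsin L and of the granzyme-activating cathepsin C. It was strongest in TFR cells of both tissues. TFR cells held 24769 and 34969 in pLN d12, 42607 in pLN d25 and 27718 and 33888 in PP. Treg cells held 13625 and 9942 in pLN d12, 11019 in d25 and 12667 and 10208 in PP. TFH cells held 6530 and 16098 in pLN d12, 11185 in d25, and 9190 and 10747 (GL7+) and 12997 and 12769 (GL7-) in PP. Naive T cells were lowest, at 4828 and 4516 on d12 and 4653 on d25, and no array of another cell type reached the TFR range.

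Against Treg cells Cst7 was higher in TFR cells by 1.34 in pLN d12 (SE 0.37, limma, adjusted p = 0.0408) and 1.43 in PP (SE 0.37, limma, adjusted p = 0.0292) on the log2 scale. Against TFH cells it was higher by 1.52 (SE 0.37, limma, adjusted p = 0.0367) and 1.62 (SE 0.37, limma, adjusted p = 0.0354). All 4 calls ended with dim probes kept, in fits of only the groups compared and when any 1 of their arrays was left out, except that the pLN call against TFH cells held without TFH replicate 2. Both PP calls also ended without slide 4 and without quantile normalisation. On all 5 slides TFR cells exceeded Treg cells, by 0.86 to 1.95, and TFH cells, by 1.12 to 1.93. The rises from naive T cells, of 1.13 in TFH and 1.32 in Treg cells, were not called (limma, adjusted p = 0.054 and 0.0892), but both were with slide as a fixed block (limma, adjusted p = 0.0279 and 0.0436), and that in TFH cells also with normexp and, at 1.79, without TFH replicate 1. Ctsl, a cathepsin that Cst7 inhibits, was lowest in TFR cells in pLN d12, with 1313 and 1308 against 17200 and 9889 in TFH cells. The difference of Ctsl between TFR and Treg cells there was not called. Its PP levels were 10287 and 10561 in GL7+ TFH and 12390 and 13160 in TFR cells.

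**Figure D3:**
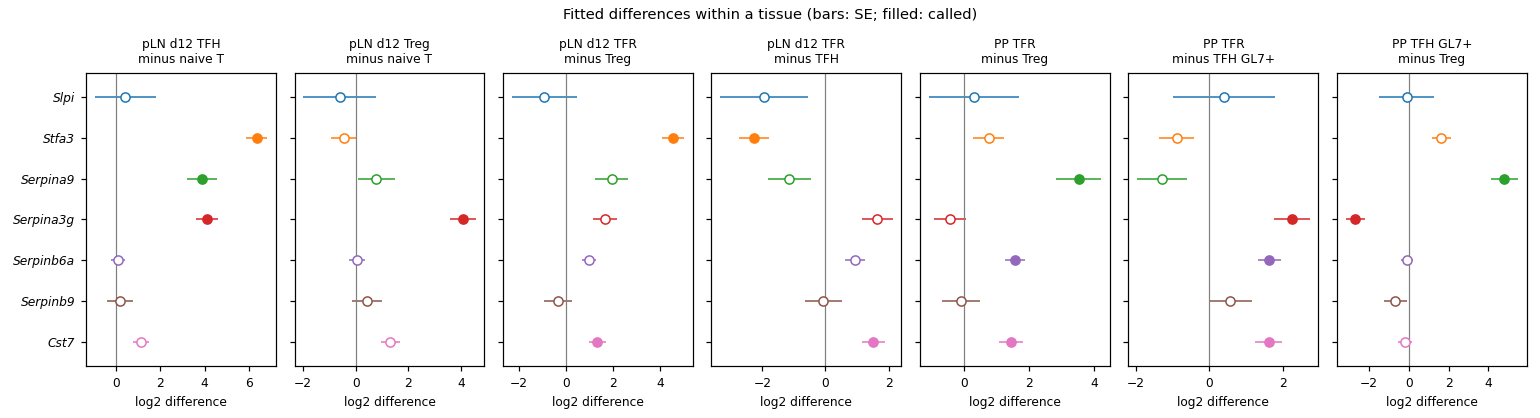
Fitted log2 difference of the 7 inhibitor genes in 7 comparisons of cell types within a tissue; bars are the SE, and filled points were called by limma (adjusted p under 0.05 and a difference of at least 1 in size). Slpi has the widest bars, Cst7 is filled in each of the 4 comparisons of TFR with Treg or TFH cells, and Serpinb9 is filled in none; fitted values of Stfa3 and Serpina9 against groups below background are not bounds.

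Counted over comparisons, 3 of 7 inhibitor genes were called in pLN d12 when TFH were compared with naive T cells (Stfa3, Serpina9 and Serpina3g), where 14.7% of the 22264 tested probes were called. Between Treg and naive T cells it was 1 (Serpina3g; all probes 3.76%), between TFR and Treg cells 2 (Stfa3 and Cst7; 8.35%) and between TFR and TFH cells 2 (Stfa3 and Cst7; 5.01%). In PP it was 3 between TFR and Treg cells (Serpina9, Serpinb6a and Cst7; 9.25%), 3 between TFR and GL7+ TFH cells (Serpina3g, Serpinb6a and Cst7; 3.44%) and 2 between GL7+ TFH and Treg cells (Serpina9 and Serpina3g; 9.87%). As the genes were chosen with results of these arrays known, these counts are no independent evidence. None of the 7 was called by limma between GL7+ and GL7- TFH cells of PP, where 0.00898% of probes were called and 254 had an unadjusted p under 0.05, and by the methods' t-test 0 of the 7 and 556 of all probes had an unadjusted p under 0.05. The same held between d25 and d12, with 0.0404% of probes called and 2098 at an unadjusted p under 0.05. A log2 difference of at least 1 in size between PP and pLN d12 was seen in 3 of the 7 genes in Treg, 4 in TFH and 3 in TFR cells, against 8.56%, 12.2% and 18.4% of all probes, of which nothing is read, since the choice used it.

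Other protease inhibitors of the array were described by a list of serpins, cystatins, WAP domain proteins, Kunitz inhibitors, TIMPs and others, with 111 genes besides the 7, of which 37 passed the filter on dim probes. In pLN d12, between naive T and TFH cells, 7 of these rose and 2 fell (24.3%), with a median log2 difference of 0.06 against -0.09 over all probes. Serpinf1, a secreted serpin without inhibitory activity, rose by 4.57 (SE 0.43, limma, adjusted p = 4.76e-05), from 157 and 108 to 4308 and 2210. Serpinc1, antithrombin, was at the floor of 20 in naive T cells and at 386 and 584 in TFH cells, at least 7.71-fold higher, and it was highest in TFR cells, at 3113 and 2997. Between TFR and Treg cells 3 rose and 1 fell in pLN d12 (10.8%, against 8.35% of all probes), and 2 rose and 4 fell in PP (16.2%, against 9.25%). Serpinb6c, whose probe resembles that of Serpinb6a, was among those that rose in PP. Wfdc2, a WAP domain protein like Slpi, was the one that fell in pLN d12, where it was 253 and 479 in Treg cells and below background in TFR cells, and in PP it was 178 and 318 in Treg cells and at the floor in TFR cells.

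Another stefin, Csta2, was detected in TFH cells of both tissues and in Treg and TFR cells of PP only. Its level was 160 and 212 in pLN d12 TFH cells, 470 and 359 in GL7+ and 516 and 384 in GL7- TFH cells of PP, 153 and 147 in TFR and 90 and 68 in Treg cells of PP. The difference between PP and pLN d12 was 1.16 in GL7+ TFH cells (SE 0.25, limma, adjusted p = 0.0266). The fitted value of Stfa3 between the same groups was negative. On the single pLN d25 TFH array Csta2 was 535, above every TFH array of PP, so the difference holds for d12 only. Between the tissues limma called 1 of the 37 in Treg, 2 in TFH and 3 in TFR cells, against 2.24%, 4.54% and 11.1% of all probes. Serpini1, an inhibitor of tissue plasminogen activator, was lower in GL7+ TFH than in Treg cells of PP by a difference of -2.60 (SE 0.41, limma, adjusted p = 0.00184).

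Of 90 protease genes that these inhibitors could meet (cathepsins, granzymes, neutrophil and trypsin-like proteases, calpains and legumain), 44 were tested. From naive T to TFH cells in pLN d12, 7 rose and 4 fell (25.0%, against 14.7% of all probes). Between Treg and naive T cells 3 rose and 1 fell (9.09%, against 3.76%), with Gzmb at least 90.2-fold higher (limma, adjusted p = 1.32e-05). Between TFR and TFH cells 3 rose and 2 fell (11.4%, against 5.01%), among them Gzmb with a difference of 3.64 (SE 0.36, limma, adjusted p = 0.000276) and Ctsl with -3.31 (SE 0.27, limma, adjusted p = 9.36e-05). Between TFR and Treg cells of PP, 3 rose and 3 fell (13.6%, against 9.25%), with Ctsl higher by 2.93 (SE 0.27, limma, adjusted p = 0.000118) and Gzmb lower, at -3.26 (SE 0.36, limma, adjusted p = 0.000303). Between PP and pLN d12 in TFR cells 3 rose and 4 fell (15.9%, against 11.1% of all probes), with Ctsl higher by 3.28 (SE 0.27, limma, adjusted p = 0.000127) and Gzmb lower, at -3.28 (SE 0.36, limma, adjusted p = 0.000529).

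**Figure D4:**
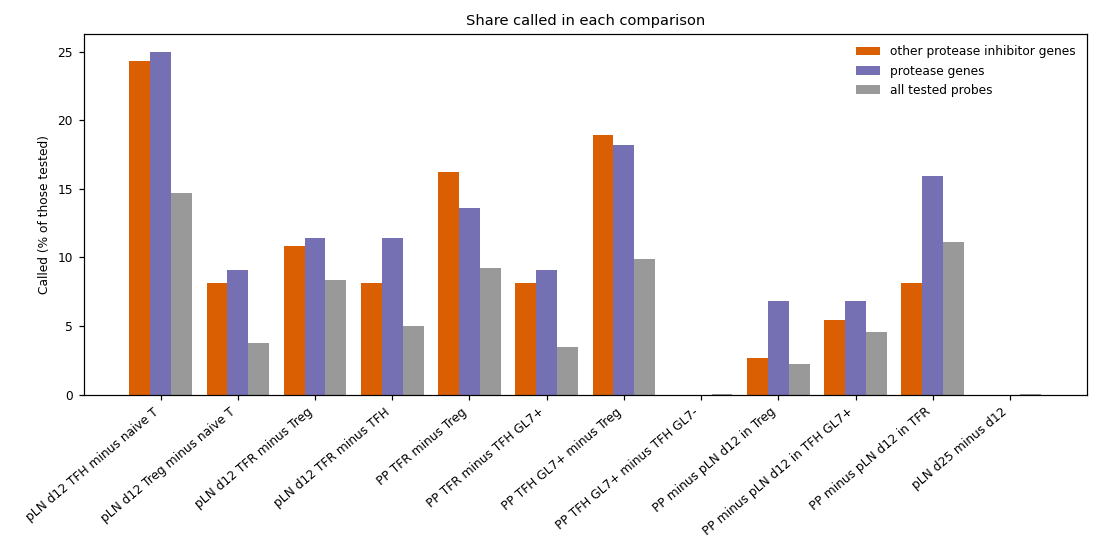
Percent of tested genes called by limma in each of the 12 comparisons, for protease inhibitor genes other than the 7 (37 tested), for protease genes (44 tested) and for all 22264 tested probes; bars start at 0. Both lists peaked in the comparison of TFH with naive T cells in pLN d12, at 24.3% and 25.0% against 14.7% of all probes, and neither had a call between GL7+ and GL7- TFH cells or between d25 and d12. The 37 include Serpinb6c, whose probe resembles that of Serpinb6a and which was called in PP between TFR and both Treg and GL7+ TFH cells.

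The genes whose 12 group means ran most like each inhibitor were Stat3 (r = 0.942), Terf2 and Mtus2 for Slpi, Gm5907 (0.969), Gm5486 and Spp1 for Stfa3, and Stx6 (0.993), Rhbdl3 and Tbc1d2b for Serpina9. They were Rnf19b (0.988), Niban1 and Tnfrsf4 for Serpina3g, Serpinb6c (0.999), Gulo and Gspt2 for Serpinb6a, Ttc33 (0.919), Parp9 and Ctss for Serpinb9, and Rgs9 (0.983), Axl and Tmem205 for Cst7. These are Pearson correlations over 12 groups that share slides, given as a description. That of Serpinb6a is with the paralogue whose probe it resembles.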

How the data were processed

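RNA of sorted cells was measured on 20 arrays in 12 groups, named from the sample labels. The deposited scanner files hold, per the file headers, processed, mean and local background intensity of each feature (Agilent Feature Extraction 10.7.3.1 per the submitters' processing notes). The authors' series matrix holds linear intensity, which the authors averaged over 4 features per probe, then quantile normalised and brought to 1500 at the 75th percentile, with 20 as the floor. Its columns served as an alternative. Other deposited columns were not used.

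Values were rebuilt from the processed intensity: features marked as outliers, outside 1.42 times the interquartile range or with a pixel coefficient of variation above 0.5 were left out (13230 to 19426 of 157716 per array), the geometric mean was taken per probe, and the same normalisation followed. The median absolute gap to the deposited matrix was 0.0347 to 0.0362 (log2) per array. A probe was detected when 3 of its 4 features were well above background. A probe entered the test if some group of 2 had it detected on both arrays (22264 probes). Detection varied from 43.0% to 58.0% of probes, and the median local background was 268 on pLN d12 TFR replicate 2. The number of arrays limits the precision.

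limma 3.58.1 in R 4.3.3 fitted a mean for each group to all arrays (8 residual degrees of freedom), and the spread of the single d25 arrays is taken from the replicated groups. P-values are two-sided with Benjamini-Hochberg adjustment over all tested probes in each of 12 comparisons, and a call needs an adjusted p under 0.05 and a log2 difference of at least 1 in size. The fit was tested on simulated data. "At least" folds compare group means of log2 values, with undetected arrays set to the lowest detected signal on them where their own value was lower. Alternatives were normexp background correction, scaling without quantile normalisation, the authors' values, no filter, slide as a block, only the groups compared, each array left out, slide 4 left out, and the methods' t-test for GL7. Each member had 1 probe, so the alternative of averaging probes is identical.

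Members, gene lists and comparisons were chosen with earlier results of these data known. The rule named the 7 members, at most 3 called genes with the largest difference per list and comparison, 3 genes of most similar pattern per member, and cell markers, and Serpina3f and Ctsl levels, with the marker values and motifs, were added after values were seen. RefSeq symbols (GRCm38.p6) were matched by accession, for 27597 of 39429 probes and 6 of 7 members. Serpina3g kept the name in the files. Probe positions are those of the array annotation (mm9). One set of marker values is not reported here.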

Additional observations from a re-analysis of the deposited data

Results flagged for a closer look

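The difference between TFR and Treg cells for Stfa3 was smaller in PP than in pLN d12, with a fitted gap of -3.78 on the log2 scale (SE 0.68). As Stfa3 was picked on its values between the tissues, this gap is a description and no p is read. The limma call of the reported fit was lost in 12 of 15 alternatives that were added after seeing the data. Among these were each array left out in turn (-4.31 to -3.26), slide 4 left out (-3.83) and normexp background correction (-2.33). The direction of the gap held in all 15. Both Treg groups were below background, so its size is no bound. It rests on the gap between the tissues in TFR cells (-3.40), and as Stfa3 was picked on such a gap in TFH cells it is no independent support. The cause was not tested.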

How the results depend on the processing

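No paired analysis was possible because the labels carry no replicate numbers, other than by slide, which pairs the arrays in the fits with slide as a fixed block and in the differences within slides. Member differences of at least 1 in size (log2) kept their direction under every alternative run. Smaller ones were not followed. In pLN d12 the 3 calls of TFH against naive T cells fell to 1 in a fit of only the groups compared, rose to 4 with normexp and with slide as a fixed block, and were 3 to 4 with an array left out. The 1 call between Treg and naive T cells became 2 with slide as a fixed block and 0 with only the groups compared. For TFR against Treg cells there the 2 calls became 1 with no filter, 3 with normexp and without quantile normalisation, 4 with slide as a fixed block, 1 with only the groups compared and 1 to 2 with an array left out. Between TFR and TFH cells they became 3 with normexp, 0 with no filter, 0 with only the groups compared and 0 to 1 with an array left out. In PP the 3 calls between TFR and Treg cells became 2 with no filter and without quantile normalisation, 0 with only the groups compared, 0 without slide 4 and 1 with any array left out. The 3 between TFR and GL7+ TFH cells became 2 without quantile normalisation, 1 with no filter, 0 with only the groups compared, 0 without slide 4 and 0 to 1 with an array left out. The 2 between GL7+ TFH and Treg cells became 3 with slide as a fixed block and without quantile normalisation and 0 without slide 4. Between d25 and d12 there was 1 (Slpi) with no filter. The 3 members with a log2 difference of at least 1 in size between the tissues in Treg cells became 1 to 3 with an array left out. The causes were not tested, apart from the fewer arrays that the fits of only the groups and those without slide 4 hold. Over single members, 303 of the alternative values kept their side of the threshold or stayed within the spread, 68 lost a call, 13 gained one and 15 untested values moved by over 1 SD. Over all probes the calls over the alternatives, with the reported count after them, were 1463 to 4263 (3283) for TFH against naive T, 0 to 1361 (837) for Treg against naive T, 585 to 2712 (1858) for TFR against Treg and 0 to 1835 (1116) for TFR against TFH cells in pLN d12. In PP they were 0 to 3092 (2059), 0 to 1376 (765) and 750 to 3279 (2198) for TFR against Treg, TFR against GL7+ TFH and GL7+ TFH against Treg cells, and 0 to 27 (2) for GL7. Between the tissues they were 0 to 500 (499) in Treg, 0 to 1040 (1011) in TFH and 648 to 2671 (2476) in TFR cells, and 0 to 38 (9) between the days. Signals near 20 cannot be resolved, which limits Stfa3 and Serpina9 in naive and Treg cells.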
